A study of Mus musculus with 7 samples.

Results

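The 9 genes described here regulate clotting and clot removal within the tissue. They are *Plat* and *Plau*, which encode the tissue and urokinase plasminogen activators, *Plaur* (the urokinase receptor), *F3* (tissue factor), *Tfpi* (tissue factor pathway inhibitor), *Thbd* (thrombomodulin), *Procr* (the endothelial protein C receptor), *Vwf* (von Willebrand factor) and *F13a1* (the A chain of coagulation factor XIII). They were chosen by symbol, and all 9 were found among the 21965 genes of the count table. RNASeq of the T9 contusion epicenter compared 3 mice labelled *Bmal1-/-* (2 females and 1 male) with 4 WT mice (2 females and 2 males) at 3 days after injury (dpi 3), with 1 library per mouse. All 7 mice were young adults on a C57BL/6 background and received a moderate 50 kdyn contusion, and a 5 mm segment was taken at one time of day. The *Bmal1-/-* mice carried the germline *Arntl* tm1Bra allele in every cell, and uninjured cord was not part of this comparison. Of the WT mice 1 was a littermate of the mutants, and the paper describes its other WT controls as bought and matched on age and sex. Genotype thus cannot be fully told apart from litter and source, and the sex ratio also differed between the groups.

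Clotting starts when tissue factor, held on cells around vessels and on astrocytes, meets plasma factor VII after a vessel is torn. TFPI blocks that first step, and thrombomodulin with the protein C receptor turns thrombin from a clotting enzyme into an activator of the anticoagulant protein C. Factor XIII cross-links the fibrin, and the plasminogen activators remove it by making plasmin. In the central nervous system tPA is also made by neurons and glia, where it acts on synapses and on the vessel wall.

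*Plat* stood alone among the 9. It rose 2.89-fold in the libraries labelled *Bmal1-/-*, while none of the other 8 passed the same test and the estimates of all 8 lay below 0. Of all 15743 genes tested, 8042 had an estimate below 0. *Plaur*, *F3* and *Tfpi* had all 3 values under the 4 WT values, as had 13.5% of all genes tested. *Thbd* was split within the genotype, with 1 library labelled *Bmal1-/-* at the WT level and 2 far below it.

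The 7 libraries held 38529644 to 44096737 counts. The quasi-likelihood test of edgeR was fitted to genotype over 15743 genes with enough counts, p-values were adjusted over all of them by Benjamini-Hochberg, and each of the 9 genes was among those fitted. In this test 103 genes (0.654%) were higher and 144 (0.915%) lower at an adjusted p under 0.05, and the median log2 fold change was -0.01. *Arntl* itself, which encodes BMAL1, was higher where its deletion is labelled, at 22.5 to 24.2 CPM against 11.9 to 15.3 CPM in WT. CPM is the count scaled to library size, with composition taken into account. A count over the whole gene does not show whether the altered exons were absent, so the labels are used as given and each direction is that of the libraries labelled *Bmal1-/-*. WT replicate 3 differed most from its group, with 1709 summed CPM of 8 neuron markers against 3309 to 4455 and 1096 summed CPM of 14 endothelial markers against 680 to 750. Neuron, astrocyte and oligodendrocyte markers were counted in every library, as the label of spinal cord requires. Skeletal muscle markers, 6 in all, summed to 5.82 to 6.80 CPM in mice labelled *Bmal1-/-* and to 45.5 to 54.4 CPM in WT mice, and 1 of them was at 0 in 1 library. Of the 6, 5 were lower at an adjusted p under 0.05, and the median log2 fold change of the list was -2.99. Their part in the values of the 9 genes was not tested.

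**Figure D1:**
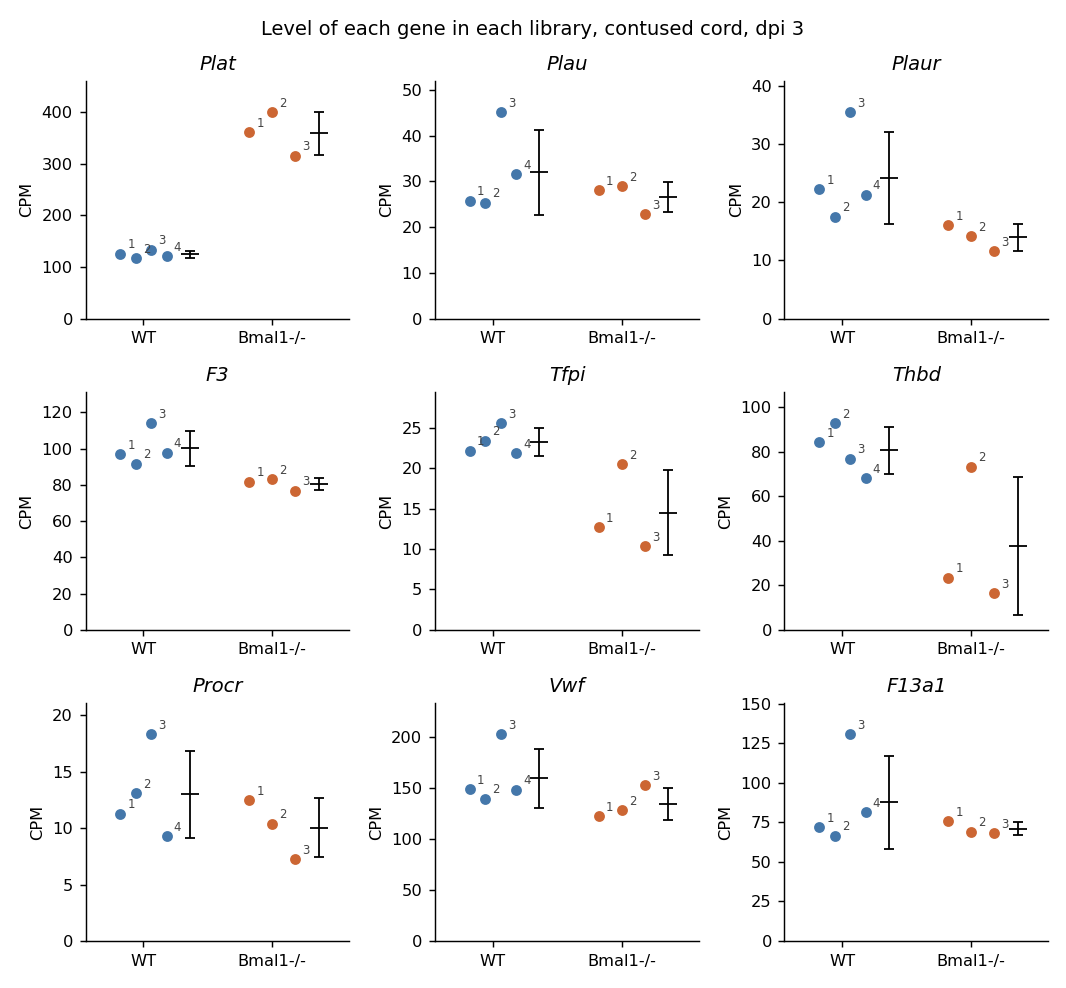
Level in CPM (vertical axes, from 0) of the 9 genes in each library, with WT and Bmal1-/- side by side, replicate numbers beside the points and the mean and SD of each group to their right. Plat is higher in all 3 libraries labelled Bmal1-/-, and Thbd and Tfpi are lowest in replicates 1 and 3.

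*Plat* (ENSMUSG00000031538, chromosome 8, 22757727 to 22782844 on GRCm38) encodes tPA, the activator that works on plasminogen bound to fibrin. It had 360.4, 399.7 and 316 CPM in the libraries labelled *Bmal1-/-*, replicates 1 to 3. The WT libraries had 126, 117, 133 and 121 CPM. The lowest library labelled *Bmal1-/-* thus lay far above the highest WT value, by much more than the spread of either group. The means were 359 ± 42.1 (SD, n = 3) and 124 ± 7.09 CPM (SD, n = 4). On the log2 scale the difference was 1.53 with a standard error of 0.10 (edgeR, adjusted p = 0.000557). It ran from 1.45 to 1.61 with each library left out in turn, and the call held in all 7 of those fits. Among all genes tested, 23 had a larger rise and 13 a smaller p. Of the 103 higher genes, 10 had a higher mean CPM than *Plat*, so it was among the more abundant of them in CPM.

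The difference was present in both sexes. The 2 females labelled *Bmal1-/-* had 360.4 and 399.7 CPM of *Plat* against 126 and 117 in WT females, and the male had 316 against 133 and 121 in WT males. The summed markers of neurons and of astrocytes, which make tPA, were also higher with the label *Bmal1-/-*. Summed CPM of 8 neuron markers were 4483 to 5538 against 1709 to 4455 in WT, with a median log2 fold change of 0.59 and none of the 8 past the adjusted threshold or at 0. Of these 8 markers, 4 overlapped between groups (*Rbfox3*, *Syt1*, *Nefl* and *Chat*). The 8 astrocyte markers summed to 15960 to 18240 against 10180 to 14910 CPM, with a median of 0.43 and again none past the threshold or at 0. Most of this sum was *Gfap*, and the astrocyte markers were not uniform. *Aldh1l1* was lower without overlap, at 117 to 139 against 143 to 209 CPM, *Slc1a3* was at 78.9 to 90.5 against 83.7 to 127, and *Gja1* was at 324 to 382 against 229 to 420. The 14 endothelial markers went the other way as a sum, at 582 to 664 against 680 to 1096 CPM, and 7 of them overlapped between groups. The part of the neuron, astrocyte and endothelial markers in the *Plat* difference was not tested. In bulk tissue, fewer cells of a type and less RNA per cell cannot be told apart.

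*Plau* (ENSMUSG00000021822, chromosome 14, 20836660 to 20843385) encodes the second plasminogen activator, which acts at the cell surface. It had 28.1, 29.0 and 22.9 CPM in the libraries labelled *Bmal1-/-* and 25.7, 25.3, 45.2 and 31.6 CPM in WT. The groups overlapped, and the highest value was that of WT replicate 3. Its log2 fold change of -0.26 (standard error 0.22) did not pass (adjusted p = 0.464, edgeR), and it was -0.05 without WT replicate 3.

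*Plaur* (ENSMUSG00000046223, chromosome 7, 24462484 to 24475968) encodes the receptor that holds urokinase on the cell. It had 16.1, 14.2 and 11.6 CPM in the libraries labelled *Bmal1-/-* and 22.3, 17.5, 35.5 and 21.3 CPM in WT. The groups did not overlap, but the WT spread was wide, at 24.2 ± 7.86 (SD, n = 4) against 14.0 ± 2.28 CPM (SD, n = 3). The log2 fold change of -0.79 (standard error 0.25) did not pass (adjusted p = 0.158, edgeR). Macrophages and microglia carry both urokinase and its receptor. Summed CPM of 10 macrophage markers, most of it *Lyz2*, overlapped, at 2206 to 2992 in the libraries labelled *Bmal1-/-*, with 2174 to 4314 in WT, where the highest was again WT replicate 3. None of the 10 passed the threshold or was at 0, 8 of them had an estimate below 0 and their median log2 fold change was -0.42. An unadjusted p under 0.05 was reached by 4, all lower (*Mrc1*, *Cd163*, *Ccr2* and *Arg1*), where 12.2% of all genes tested were lower at that level. The first 3 of these did not overlap between groups, beside 13.5% of all genes that were lower without overlap. The 2 macrophage markers with an estimate above 0 were *Gpnmb* and *Adgre1*. All 6 microglia markers overlapped between groups, with a median log2 fold change of -0.11 and 0 at an unadjusted p under 0.05. The part of the macrophage and microglia markers in the *Plaur* values was not tested.

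**Figure D2:**
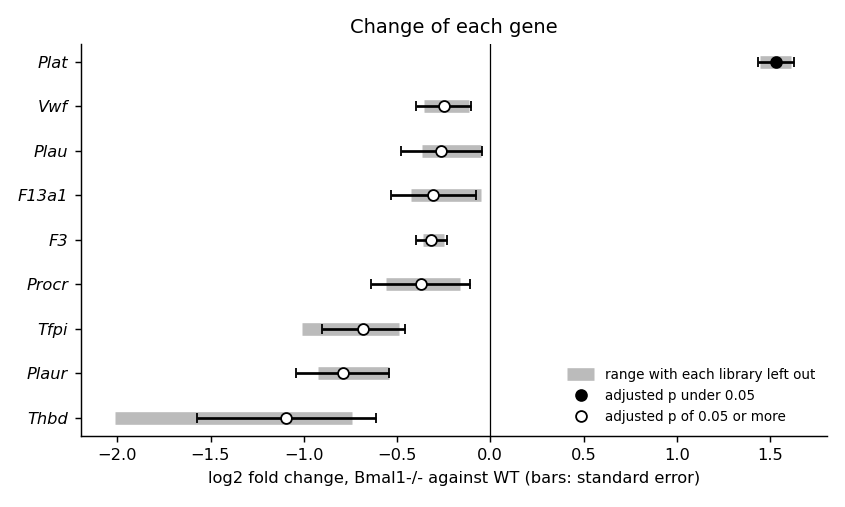
Log2 fold change of Bmal1-/- against WT (horizontal axis) for each of the 9 genes, with the standard error as a thin bar and the range over the 7 fits that each left out 1 library as a grey band. Plat, at 1.53, is the filled point past the threshold, and the band of Thbd runs from -2.01 to -0.74.

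*F3* (ENSMUSG00000028128, chromosome 3, 121723537 to 121735048) encodes the starter of clotting, and astrocytes are its main source in the central nervous system. It had 81.7, 83.1 and 76.7 CPM in the libraries labelled *Bmal1-/-*. The WT libraries had 97.1, 91.7, 114 and 97.8 CPM. Each library labelled *Bmal1-/-* lay under each WT library, and the difference was small, at 80.5 ± 3.36 (SD, n = 3) against 100.2 ± 9.67 CPM (SD, n = 4). With edgeR this gave -0.32 on the log2 scale (standard error 0.08, adjusted p = 0.118). Without WT replicate 3 it was -0.25 and passed (edgeR, adjusted p = 0.0469), in a fit that called 2.8% of all genes lower. The sum of the 8 astrocyte markers, not uniform as given above, went the other way, at 15960 to 18240 against 10180 to 14910 CPM. Their part in the *F3* values was not tested.

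*Tfpi* (ENSMUSG00000027082, chromosome 2, 84432855 to 84476775) encodes the inhibitor of that first step, a product of endothelial and stromal cells. It had 12.7, 20.5 and 10.3 CPM in the libraries labelled *Bmal1-/-* and 22.1, 23.4, 25.6 and 21.8 CPM in WT. The groups were apart, with replicate 2 of *Bmal1-/-* just under the lowest WT value. With a log2 fold change of -0.68 and a standard error of 0.22, *Tfpi* did not pass (edgeR, adjusted p = 0.168).

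*Thbd* (ENSMUSG00000074743, chromosome 2, 148404466 to 148408188) encodes the thrombin receptor of the vessel lining. It had 23.3, 73.2 and 16.5 CPM in the libraries labelled *Bmal1-/-* and 84.4, 92.9, 77.0 and 68.2 CPM in WT. Replicate 2 of *Bmal1-/-* lay within the WT range and the other two lay far below it. The wide spread left a log2 fold change of -1.10 with a standard error of 0.48, not past the threshold (edgeR, adjusted p = 0.247).

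The levels of *Thbd* and *Tfpi* were lowest in the 2 libraries that were also lowest in fibroblast markers. Summed CPM of 8 fibroblast markers, including collagens and decorin, were 393, 2266 and 313 in the libraries labelled *Bmal1-/-* and 1628, 1942, 1305 and 1185 in WT, and no marker of the list was at 0. Replicates 1 and 3 of *Bmal1-/-* had the lowest sums and were lowest for each of the 8 markers. Replicate 2 had the highest sum through 3 collagens (*Col1a1*, *Col1a2* and *Col3a1*), was within the WT range for *Dcn* and *Ogn*, and was below every WT library for *Lum*, *Fmod* and *Aldh1a2*. Of the 8 markers, 1 (*Fmod*, named after its value was seen) was lower at an adjusted p under 0.05, where 0.915% of all genes were. The median log2 fold change of the 8 was -1.35. Without replicate 2 of *Bmal1-/-*, *Thbd* and *Tfpi* both passed with edgeR, at log2 fold changes of -2.01 (adjusted p = 0.00972) and -1.01 (adjusted p = 0.0255), in a fit that called 0.838% of all genes lower. With each library left out, their log2 fold changes ran from -2.01 to -0.74 and from -1.01 to -0.49. The 6 pericyte markers, 4 with an estimate below 0 and 2 above, were also lowest in replicates 1 and 3 of *Bmal1-/-*. They summed to 369, 405 and 323 CPM in replicates 1 to 3 and to 431 to 502 in WT. Macrophage, microglia and oligodendrocyte sums were also highest in replicate 2 among these 3 libraries, but overlapped with WT. The 14 endothelial markers had another order, at 664, 582 and 610 CPM. The part of the fibroblast markers and of these other markers in the *Thbd* and *Tfpi* values was not tested. *Plat* was at 399.7 CPM in replicate 2 and at 360.4 and 316 in replicates 1 and 3, all above WT. These 3 libraries had the same order in the fibroblast and pericyte marker sums, and the part of those markers in the *Plat* values was not tested.

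**Figure D3:**
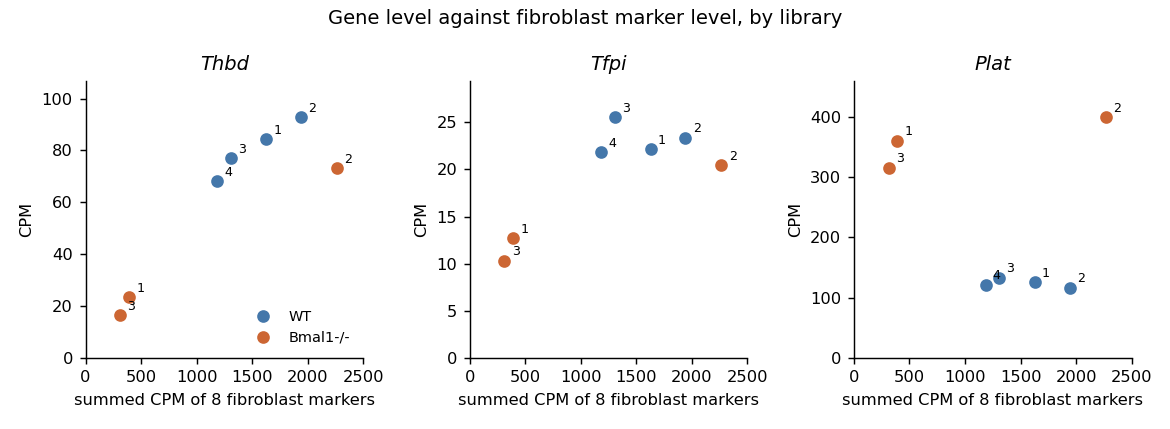
Level of Thbd, Tfpi and Plat in CPM (vertical axes) against the summed CPM of 8 fibroblast markers (horizontal axes), with 1 point per library and its replicate number. Replicates 1 and 3 of Bmal1-/-, at 393 and 313 CPM of the markers, hold the lowest Thbd and Tfpi. Plat is higher in all 3 libraries labelled Bmal1-/- than in WT.

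*Procr* (ENSMUSG00000027611, chromosome 2, 155751117 to 155755471) encodes the receptor that presents protein C to the thrombin and thrombomodulin complex. It was the least abundant of the 9 in CPM, with 12.5, 10.4 and 7.23 in the libraries labelled *Bmal1-/-* and 11.3, 13.1, 18.3 and 9.31 in WT. The groups overlapped (log2 fold change -0.37, standard error 0.27, adjusted p = 0.409, edgeR). Its log2 fold change was -0.16 without WT replicate 3, and ran down to -0.56 with other libraries left out.

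*Vwf* (ENSMUSG00000001930, chromosome 6, 125546774 to 125686679) encodes the endothelial protein that tethers platelets. It had 122, 128 and 152 CPM in the libraries labelled *Bmal1-/-* and 148, 139, 203 and 148 CPM in WT. The groups overlapped, and WT replicate 3 was the highest. Its log2 fold change of -0.25 (standard error 0.15) did not pass (edgeR, adjusted p = 0.342), and it was -0.11 without WT replicate 3. The 14 endothelial markers summed to 582 to 664 CPM with the label *Bmal1-/-* and to 680 to 1096 CPM in WT, without overlap. Of the 14, 1 (*Cdh5*, named after its value was seen) was lower at an adjusted p under 0.05, where 0.915% of all genes were. The list was not uniform, since 7 of the 14 overlapped between groups. The estimate of *Slco1a4* lay above 0, at 70.4 to 73.2 against 55.9 to 71.9 CPM. None of the 14 was at 0, and their part in the values of *Vwf* was not tested.

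*F13a1* (ENSMUSG00000039109, chromosome 13, 36867178 to 37050244) encodes the fibrin cross-linker, which macrophages and platelets carry. It had 75.6, 68.9 and 68.1 CPM in the libraries labelled *Bmal1-/-* and 72.0, 66.6, 131 and 81.2 CPM in WT. Except for WT replicate 3 the 7 libraries lay close together. The estimate on the log2 scale was -0.31 (standard error 0.23, edgeR adjusted p = 0.424), and -0.05 without that library. Exons of *F13a1* share 74 bases with a gene on the other strand, *Gm30489*, and the strand setting of the counting is not given in the sources used here.

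Read as a group, 1 of the 9 genes was higher and 0 were lower at an adjusted p under 0.05, where 0.654% and 0.915% of all genes were. At an unadjusted p under 0.05 there were 3 lower (*Plaur*, *F3* and *Tfpi*), where 12.2% of all genes tested were lower at that level, and limma-voom also called 0 lower. The 3 genes whose values all lay under WT stand beside 13.5% of all genes, and the 1 gene with all values above WT beside 13.4%. DESeq2, the authors' own tool, called *Plaur*, *F3* and *Tfpi* lower as well (adjusted p = 0.0351, 0.0279 and 0.0440), and it called 5.63% of all genes lower. The median log2 fold change of the 9 was -0.32.

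Set on a per-length scale, the order of the 9 genes differed between the genotypes at its top. In WT, *F3* led with 39.6 ± 3.83 RPKM (SD, n = 4), which is CPM per kilobase of annotated exon. *Thbd* (21.7 ± 2.82), *Plat* (19.9 ± 1.14), *Plau* (13.5 ± 3.91), *F13a1* (9.88 to 19.4 over the libraries), *Vwf* (9.94 ± 1.80), *Plaur* (9.23 ± 3.00), *Procr* (6.40 ± 1.91) and *Tfpi* (4.25 ± 0.31 RPKM) followed. Every neighbouring pair below *F3* overlapped in its range over the WT libraries. In the libraries labelled *Bmal1-/-*, *Plat* led with 57.5 ± 6.75 RPKM (SD, n = 3) and *F3* came next with 31.9 ± 1.33, and each was apart from the gene below it. The others ran from 11.3 ± 1.39 for *Plau* to 2.65 ± 0.97 RPKM for *Tfpi*, and *Vwf* and *Plaur* were the only neighbouring pair among them whose ranges were apart.

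Ratios of counts within a library do not depend on how libraries are scaled, and are given as descriptions with no test. For each count of *Plau* there were 12.8, 13.8 and 13.8 counts of *Plat* in the libraries labelled *Bmal1-/-*. In WT there were 4.88, 4.60, 2.95 and 3.84. The mean log2 ratio was 3.75 ± 0.06 (SD, n = 3) against 2.00 ± 0.33 (SD, n = 4), so the balance of the 2 plasminogen activator transcripts differed by 3.37-fold between the group means. This log2 difference of 1.75 ran from 1.61 to 1.85 with each library left out.

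*Plau* per *Plaur*, the activator over its receptor, was 1.74 to 2.04 with the label *Bmal1-/-* and 1.16 to 1.48 in WT, also without overlap. In the clotting arm the ratios overlapped. *F3* per *Tfpi* was 6.44, 4.06 and 7.43 in the libraries labelled *Bmal1-/-*, with 3.92 to 4.48 in WT, with replicate 2 of *Bmal1-/-* again at the WT level. *Thbd* per *F3* was 0.286, 0.881 and 0.215 against 0.675 to 1.01, and *Procr* per *Thbd* was 0.142 to 0.534 against 0.134 to 0.238.

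**Figure D4:**
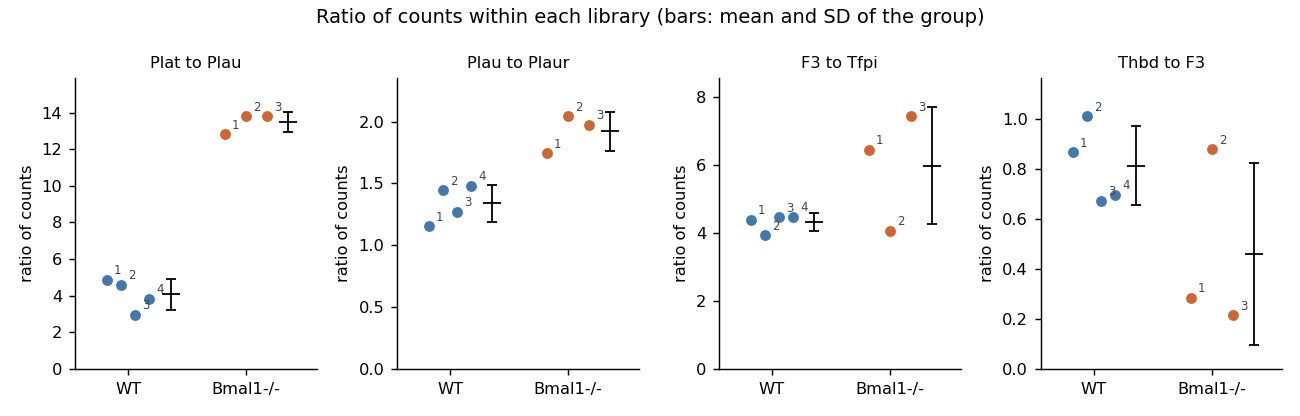
Ratio of counts within each library (vertical axes, from 0) for 4 pairs of genes, by genotype, with replicate numbers and the mean and SD of each group. Plat per Plau lies at 12.8 to 13.8 in the libraries labelled Bmal1-/- and at 2.95 to 4.88 in WT, whereas F3 per Tfpi and Thbd per F3 overlap.

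The wider system was read from 6 lists of 60 further genes, of which 44 could be tested. None passed an adjusted p of 0.05 with edgeR, and 14 had an unadjusted p under 0.05, all of them lower in the libraries labelled *Bmal1-/-*, where 12.2% of all genes tested were lower at that level. DESeq2 called 5, all lower (*F2rl1*, *Itgb3*, *Ppbp*, *Ptgis* and *Entpd1*), where it called 5.63% of all genes lower. The median log2 fold change of the 44 was -0.24, with 32 below 0, against a median of -0.01 over all genes.

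In the plasminogen system 0 of 10 genes tested passed with edgeR. At an unadjusted p under 0.05, 2 of its genes were lower, where 12.2% of all genes tested were. Its most abundant members in CPM were *Lrp1*, a scavenger receptor that clears activator and inhibitor complexes, *Serpine2* (protease nexin-1, an inhibitor of thrombin and the activators) and *Anxa2*, which holds tPA and plasminogen at the cell surface. *Lrp1* had 996 ± 41.7 (SD, n = 3) against 1002 ± 100.3 CPM (SD, n = 4), and *Serpine2* had 396 ± 19.7 against 419 ± 27.8. The values of both genes overlapped between groups. *Anxa2* had 275 ± 53.1 against 406 ± 85.3 CPM (log2 fold change -0.56, adjusted p = 0.194, edgeR). *Plg*, the plasminogen gene itself, which the liver expresses, was near the limit of counting. It had 0.0771 to 0.356 CPM over the 7 libraries (3 to 14 counts) and a log2 fold change of 0.87 (adjusted p = 0.353, edgeR).

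Of the clotting cascade, 12 of 19 genes could be tested and 0 passed. At an unadjusted p under 0.05, 2 of the 12 were lower, where 12.2% of all genes tested were. The genes for prothrombin and fibrinogen, made by the liver, were not testable. *Tgm2*, a tissue transglutaminase related to factor XIII, led in CPM with 135 ± 18.3 (SD, n = 3) against 199 ± 46.5 (SD, n = 4), and did not overlap (log2 fold change -0.56, adjusted p = 0.175, edgeR). Its exons overlap genes on the other strand. *Mcfd2* and *Lman1*, which carry factors V and VIII through the secretory pathway, had 92.6 ± 6.59 against 113 ± 22.4 CPM and 65.8 ± 4.40 against 76.9 ± 3.78 CPM. The largest difference was that of *F10*, at 4.13 ± 0.89 against 7.51 ± 3.74 CPM (log2 fold change -0.86, adjusted p = 0.242, edgeR).

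Among the other anticoagulants, 0 of 6 genes tested passed and 1 was lower at an unadjusted p under 0.05, beside 12.2% of all genes. That was *Tfpi2*, at 2.26 ± 0.70 (SD, n = 3) against 4.58 ± 2.50 CPM (SD, n = 4). *Anxa5* (429 ± 71.1 against 398 ± 25.7 CPM), *Gas6* (221 ± 8.53 against 236 ± 24.9) and *Pros1*, which encodes protein S, a cofactor of protein C (161 ± 19.6 against 156 ± 21.6), each overlapped between groups. Of the 4 genes of the thrombin receptor family, not all of whose products thrombin cleaves, *F2r*, which encodes the thrombin receptor PAR1, had 18.7 ± 2.97 against 17.6 ± 2.26 CPM and *F2rl2* had 14.1 ± 3.47 against 15.3 ± 8.94. *F2rl1* was near the limit of counting, with 0.407 ± 0.11 against 0.917 ± 0.27 CPM (log2 fold change -1.16, adjusted p = 0.124, edgeR).

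The platelet list had the lowest median, -0.69 over 8 genes tested, with 0 past the threshold and 5 at an unadjusted p under 0.05 (12.2% of all genes were lower at that level). Of the 5 at that level, *Gp9*, *Treml1* and *Ppbp* were near the limit of counting, with 7 to 20, 6 to 23 and 4 to 67 counts. The 1 member with an estimate above 0 was *Gp5*, at 0.534 to 0.864 against 0.524 to 0.745 CPM. *Pf4* had 15.9 ± 3.96 (SD, n = 3) against 33.3 ± 20.1 CPM (SD, n = 4), with 62.4 CPM in WT replicate 3. *Itgb3*, which other cells also express, had 11.6 to 12.6 CPM against 15.7 to 23.7 in WT, and *Itga2b* had 4.72 ± 0.56 against 5.48 ± 1.34. *Ppbp* had 0.102 to 0.279 CPM in the libraries labelled *Bmal1-/-*, with 0.308 to 1.67 CPM in WT. Red cell genes were also lower with the label *Bmal1-/-*, although the mice were perfused. The 5 red cell genes summed to 26.1 to 60.0 CPM with the label *Bmal1-/-* and to 149 to 451 CPM in WT, with 1 of the 5 (*Hbb-bt*, named after its value was seen) past the threshold and none at 0. Over replicates 1 to 3 of *Bmal1-/-* the red cell sums were 60.0, 37.3 and 26.1 CPM. Over the same libraries *Pf4* was at 17.9, 11.4 and 18.5 CPM and *Ppbp* at 0.102, 0.116 and 0.279, in another order. The part of the red cell genes in the platelet values was not tested.

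Vessel wall genes that restrain platelets were 4, none past the threshold with edgeR and 3 lower at an unadjusted p under 0.05, beside the same 12.2%. *Ptgis*, the prostacyclin synthase, had 1.70, 4.50 and 0.939 CPM in the libraries labelled *Bmal1-/-*, with 7.52 to 9.39 in WT (log2 fold change -1.83, adjusted p = 0.112). As for *Thbd*, replicate 2 of *Bmal1-/-* was the highest of its group. *Entpd1*, an ectoenzyme that degrades ADP, had 34.3 ± 1.78 (SD, n = 3) against 46.7 ± 8.16 CPM (SD, n = 4), *Nos3*, the endothelial nitric oxide synthase, had 16.9 to 21.5 against 23.2 to 47.9 CPM and *Nt5e* had 13.5 ± 3.29 against 19.6 ± 5.15.

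**Figure D5:**
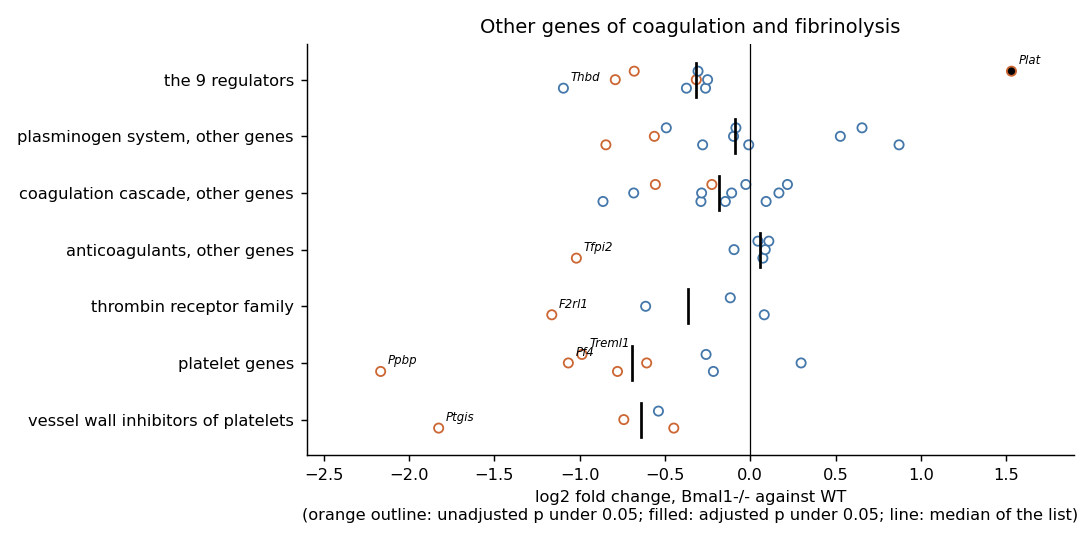
Log2 fold change of Bmal1-/- against WT (horizontal axis) for the 9 regulators and the 44 tested genes of 6 further lists, 1 point per gene, with the median of each list as a line. The filled point, Plat, is the gene past an adjusted p of 0.05, and points with an orange outline have an unadjusted p under 0.05.

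The genes whose pattern was most like each of the 9 were found by Pearson's r of log2 CPM over the 7 libraries, 2 for each and with no test. All 7 points come from the same libraries, and the best of 15743 genes has a high r by selection. *Plat* was most like *Igfbpl1* (r = 0.999) and *Nfil3* (0.997), with log2 fold changes of 6.05 and 0.94. *Thbd* was most like *Foxc1* and *Ccdc80* (0.997 and 0.996), and *Tfpi* like *Klf4* and *Ror1* (both 0.997). *F3* went with *Pcna* and *Cenpq* (both 0.999), *Plaur* with *Gipc1* and *Id1* (both 0.998), *Plau* with *Hoxa2* and *Bckdk* (0.998 and 0.996), *F13a1* with *Il1b* and *Pym1* (both 0.993), *Vwf* with *Ms4a4d* and *Chd1* (0.996 and 0.967) and *Procr* with *Caap1* and *Tmbim4* (0.987 and 0.985). Among the 9, *Thbd* and *Tfpi* had r = 0.979, as had *Plaur* and *F3*.

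BMAL1 and its partner CLOCK bind the E-box, CACGTG, and promoter sequence of the 9 genes is shown where it holds that motif. RefSeq windows of 300 bases, from 250 before to 50 after a start on GRCm38.p6, were at hand for 5 of the 9 (*Tfpi*, *Procr*, *F3*, *Plaur* and *F13a1*, 7 windows in all), and not for *Plat*, *Plau*, *Thbd* and *Vwf*. The E-box, which is its own reverse complement, was in 1 of the 5 genes, where 8.09% of 27025 genes had it in a window. It lay in *Tfpi* at base 17 after the start, on the minus strand of chr2:84476726-84476755, with the motif in capitals.
Tfpi: tggccatctgcaCACGTGagtgataaagtc
*Tfpi* is the gene given above with 10.3 to 20.5 CPM in the libraries labelled *Bmal1-/-*, with 21.8 to 25.6 CPM in WT. That difference did not pass (edgeR, adjusted p = 0.168). The other window of *Tfpi*, at chr2:84474125-84474424, held no E-box. The match is a description of sequence, and binding was not measured here.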

How the data were processed

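RNASeq was made from the contused T9 cord of 3 mice labelled *Bmal1-/-* and 4 WT mice, 1 library each. Libraries were poly-A selected and stranded, and the authors used Tophat2 for alignment to GRCm38 and HTSeq 0.10.0 for counting. The deposited values are raw counts, with no normalization and no rows without a gene. The annotation release and strand setting are not given in the sources used here. Symbols matched 21939 of 21965 IDs. Counts were filtered with filterByExpr, scaled with TMM and tested on genotype with edgeR 4.0.16 (R 4.3.3, limma 3.58.1) at an adjusted p of 0.05. CPM used TMM library sizes, and RPKM used merged exon lengths of GENCODE M21. Log2 CPM had a prior count of 2. For genes with many counts, counting error is small at 38529644 to 44096737 counts per library. There the spread between mice (common dispersion 0.0342) limits precision. For genes with few counts, such as *Plg* (3 to 14 counts), counting error limits it as well.

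The 9 genes, the lists and the marker lists were chosen with earlier results of these data known, and 1 further gene of the pathway is not reported here. All 9 genes were named. In each further list the named genes were the 3 with the highest mean CPM, the one with the largest absolute log2 fold change and any past the threshold, and for likeness the 2 with the highest r. *Gp5*, *Gp9* and *Treml1* were named in addition, for their direction or their low counts. Alternatives were DESeq2 1.42.0, limma-voom, RLE and upper-quartile scaling, 2 other filters (1 count in total, and a mean count of 10), sex as a covariate, a replicate block and each library left out. The functions were tested on simulated data.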

Additional observations from a re-analysis of the deposited data

Results flagged for a closer look

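A gap wider than the 95% critical value of Dixon's test for 4 libraries was found in the WT group for 3 of 14 measures tested, and about 1 in 20 groups passes by chance. *Vwf* in WT replicate 3, at 203 CPM against 139 to 148, had a gap of 0.853 of the range. The ratio of *Procr* to *Thbd* in the same library, 0.238 against 0.134 to 0.141, had a gap of 0.908. The ratio of *F3* to *Tfpi* in WT replicate 2, 3.92 against 4.39 to 4.48, had a gap of 0.843 within a narrow range.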

How the results depend on the processing

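Of 135 recomputed fold changes of the 9 genes, 128 kept their side of the threshold, 6 passed it newly, 1 lost it and none changed sign. Of the 9 genes, 1 passed with edgeR, 4 with DESeq2, 0 with the replicate block and 1 to 3 with each library left out (3 without replicate 2 of *Bmal1-/-*, 2 without WT replicate 3). Of the 60 further genes, 0 passed with edgeR, 5 with DESeq2 and 0 to 1 with each library left out. Over all genes 247 passed, against 1495 with DESeq2, 0 with the block (1590 at an unadjusted p under 0.05) and 57 to 730 with each library left out. The cause of these moves was not tested.

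In the fit with a replicate block *Plat* kept a log2 fold change of 1.52 but not its call (adjusted p = 0.116, edgeR). The replicate numbers did not pair the mice, since deviations from the group means correlated at -0.17, 0.18 and -0.29 over genes for numbers 1 to 3. Not every library correlated best with its own number, and the numbers name different mice. The log2 difference of the ratio *F3* to *Tfpi* ran from 0.25 to 0.68 with each library left out.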
